A study of Mus musculus with 12 samples.

Results

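EF line S_220 was compared with EF line S_221 through 4 of the 12 ATAC-seq libraries of the series, 2 from each line. ATAC-seq marks open chromatin with a transposase that inserts sequencing adapters where DNA is accessible. The labels call the cells MSCLCs and give these 4 libraries the genotype EF, with no treatment named; the series title speaks of mouse bone mesenchymal stem cells and of EWS::FLI1, a fused transcription factor that drives Ewing sarcoma, and the design text of EFPrx1 cells. Prx1 is a name of Prrx1, a limb mesenchyme gene whose regulatory sequence is widely used to drive Cre recombinase, but the alleles, the driver, the origin of each line and the number of animals or clones behind it are not stated there. The other 8 libraries were read only as comparison: 4 of the genotype Wt, 1 of Wt_IGF1, 2 of EF_IGF1 (titled S_220 and S_221) and 1 of EF_IGF1_xeno (titled S_221), where a xenograft library can also hold cells of the host. By title, Wt replicates 1 to 4 came from WT_1, WT_2, BM and S_203, and the Wt_IGF1 library from BM. Each EF line had its replicate 1 on flowcell BSF_0654 and its replicate 2 on flowcell BSF_1013. Wt replicates 1 and 2 were on BSF_0654, and the remaining comparison libraries on BSF_1013. Whether the 2 libraries of a line came from separate cultures is not stated, so their spread may be technical.

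Peaks that overlapped by at least 1 bp in any of the 12 libraries on chromosomes 1 to 19 and X were merged into 153346 regions. A region was called in a library where a peak of that library overlapped it, and it was line-specific where both libraries of one line and neither of the other called it. Of the regions, 87159 were called in at least 1 of the 4 EF libraries and 18430 in all 4. Line S_220 had 8244 specific regions, which is 9.46% of the 87159, and line S_221 had 3946, or 4.53%. These calls are the rule itself and carry no test. A region without a call may still be open below the threshold of the peak caller.

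An open region in mesenchymal cells is a promoter, at the start of a gene, or a distal element such as an enhancer, and the set of open distal elements differs between cell states more than the set of open promoters. Lines derived from transformed mesenchymal cells can also gain or lose pieces of chromosome, and a lost piece gives no reads and so no peaks. The locus of Cdkn2a and Cdkn2b is a well-known example of such loss in tumours and in cells grown for long in culture. It encodes Ink4a and Ink4b, inhibitors of the cyclin-dependent kinases that drive entry into the cell cycle, and Arf, which stabilises the tumour suppressor p53.

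The sequences below are the 250 bases before each RefSeq start (build GRCm38.p6, strand of the gene) at Cdkn2a and Cdkn2b, where line S_221 had no call and line S_220 and the Wt cells did, and at 4 genes whose start was open in a single line. The first 3 are shown because they are the starts of the locus described below. Its stretch without peaks covers the Arf and Cdkn2b starts, and the Ink4a start only in S_221 replicate 1 and EF_IGF1_xeno. The other 4 are examples of starts open in a single line, chosen after their values were seen. Capitals mark matches, on either strand, to 3 motifs: CATTCC, the core bound by TEAD factors, TGANTCA, bound by AP-1, and GGAAGGAA, a short GGAA repeat of the kind that EWS::FLI1 binds. No window shown held matches to more than 1 of the motifs, so none overlapped.
Cdkn2a (Ink4a start), chr4:89282193-89282442, minus strand: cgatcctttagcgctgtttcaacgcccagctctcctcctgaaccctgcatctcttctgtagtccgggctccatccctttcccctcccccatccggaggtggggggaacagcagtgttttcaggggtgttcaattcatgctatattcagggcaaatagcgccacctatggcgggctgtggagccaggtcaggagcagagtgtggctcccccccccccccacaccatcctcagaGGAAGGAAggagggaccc
Cdkn2a (Arf start), chr4:89294620-89294869, minus strand: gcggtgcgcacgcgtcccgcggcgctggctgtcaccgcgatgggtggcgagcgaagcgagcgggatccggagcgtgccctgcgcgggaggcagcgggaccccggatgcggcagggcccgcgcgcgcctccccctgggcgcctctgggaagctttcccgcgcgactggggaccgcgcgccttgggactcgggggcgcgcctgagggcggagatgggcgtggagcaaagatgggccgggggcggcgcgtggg
Cdkn2b, chr4:89311033-89311282, minus strand: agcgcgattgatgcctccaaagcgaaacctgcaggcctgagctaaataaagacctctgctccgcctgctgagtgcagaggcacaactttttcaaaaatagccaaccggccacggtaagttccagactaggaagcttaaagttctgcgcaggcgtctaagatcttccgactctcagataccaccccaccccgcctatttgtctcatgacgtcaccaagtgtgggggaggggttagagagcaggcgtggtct
Sox11, chr12:27342719-27342968, minus strand: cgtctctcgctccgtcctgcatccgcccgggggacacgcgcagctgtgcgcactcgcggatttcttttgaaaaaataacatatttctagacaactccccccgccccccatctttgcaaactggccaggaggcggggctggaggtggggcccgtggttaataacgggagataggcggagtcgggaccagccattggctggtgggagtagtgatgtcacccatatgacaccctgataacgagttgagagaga
Ankrd1, chr19:36119845-36120094, minus strand: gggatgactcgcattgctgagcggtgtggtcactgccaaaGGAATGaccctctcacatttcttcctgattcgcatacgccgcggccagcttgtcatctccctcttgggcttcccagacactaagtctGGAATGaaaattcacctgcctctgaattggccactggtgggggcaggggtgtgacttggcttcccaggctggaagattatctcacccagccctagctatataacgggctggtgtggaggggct
Hoxd9, chr2:74697513-74697762, plus strand: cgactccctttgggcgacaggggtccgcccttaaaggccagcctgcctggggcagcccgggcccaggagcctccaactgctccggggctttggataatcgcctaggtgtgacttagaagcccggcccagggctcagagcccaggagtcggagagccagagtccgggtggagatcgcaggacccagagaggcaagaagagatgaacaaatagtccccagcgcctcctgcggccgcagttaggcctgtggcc
Cxcl1, chr5:90890995-90891244, plus strand: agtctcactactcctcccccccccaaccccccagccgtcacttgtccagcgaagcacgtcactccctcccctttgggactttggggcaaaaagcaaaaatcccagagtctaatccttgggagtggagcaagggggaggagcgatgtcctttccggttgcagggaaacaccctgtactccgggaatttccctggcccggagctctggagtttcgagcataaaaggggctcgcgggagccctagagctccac
The first 4 lie under regions called only in S_220, and the last 3 under regions called only in S_221. The window of the Arf start had 78.4% G and C and 40 CpG dinucleotides, against 60% and 7 at the Ink4a start, and the median over all 21044 promoters of protein-coding genes was 55.6% and 10. The Ankrd1 window held 2 matches to CATTCC, which 11.6% of all promoters hold at least once. The Ink4a window held 1 match to GGAAGGAA, found in 2.83% of all promoters.

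The lists differed in length before any comparison. The 2 libraries of S_220 had 52411 and 52793 peaks, while those of S_221 had 27309 and 67306. The difference, S_220 minus S_221, was 25102 peaks on BSF_0654 and −14513 on BSF_1013. The mean was 52602 ± 270.1 (SD, n = 2) in S_220 and 47307.5 ± 28282 (SD, n = 2) in S_221, and an exact two-sided permutation test gave p = 1, where 2 against 2 libraries cannot give less than 0.333. The 2 libraries of S_221 thus lay on either side of those of S_220, and the short list of S_221 replicate 1 limited how many regions could be called in both libraries of that line. The median number of reads at the summit of a peak, solved from the deposited fold and p-value, was 19 and 23 in S_220 and 17 and 31 in S_221. The −log10 p values printed below are the authors' own for each peak, and a library with more reads gives higher ones.

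The balance between the lines turned with the flowcell. On BSF_0654, S_220 had 29578 regions that S_221 lacked (53.6% of the 55140 called in either) and S_221 had 5258 that S_220 lacked (9.54%). On BSF_1013 the order was opposite, with 15194 (19%) only in S_220 and 29746 (37.1%) only in S_221 among 80155 regions. With each of the 12 lists cut to its 27309 strongest peaks, the counts over both libraries of each line were 4616 and 4159. Which line had more specific regions was therefore not a stable result, and the text below describes where they lay and what they were.

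**Figure D1:**
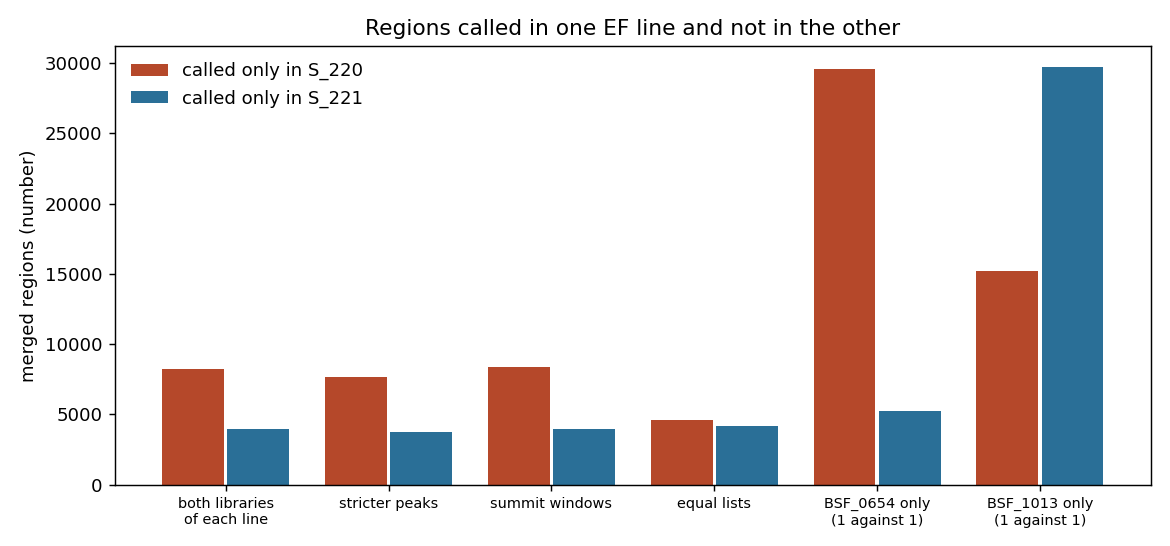
Number of merged regions (vertical axis) called only in S_220 (red) or only in S_221 (blue), under 6 ways of counting. Both libraries of each line gave 8244 and 3946, equal lists 4616 and 4159, and the 2 flowcells taken alone gave opposite orders.

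The S_220 pair was more alike than any pair between the lines, and the S_221 pair was not. By the Jaccard index of equal lists, the bases covered by both libraries over the bases covered by either, the S_220 pair reached 0.546 and the S_221 pair 0.402. Between the lines the 4 pairs ran from 0.343 to 0.425, with a mean of 0.386, so the S_221 pair lay inside the range between lines. With the full lists the S_221 pair had 0.285, below the mean of 0.352 between the lines. Of the equal list of S_221 replicate 1, however, 79.7% of regions were called in S_221 replicate 2, against 61.1% in S_220 replicate 2.

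The library titled S_220 among the EF_IGF1 libraries resembled line S_221. Of the 8244 regions specific to S_220 it called 692, or 8.39% (exact Clopper-Pearson 95% interval 7.80 to 9.01), and of the 3946 specific to S_221 it called 2718, or 68.9% (67.4 to 70.3). The EF_IGF1 library titled S_221 called 12.3% (11.6 to 13.1) and 78.4% (77.1 to 79.7), and the EF_IGF1_xeno library called 4.57% (4.13 to 5.05) and 61.0% (59.4 to 62.5). These intervals cover counting error only, and neighbouring regions are not independent. For comparison, the same 3 libraries called 36.8%, 39.5% and 26.7% of all merged regions. In the equal lists, the EF_IGF1 library labelled S_220 had a Jaccard index of 0.587 with S_221 replicate 2 and of 0.383 with S_220 replicate 2, all of the same flowcell. With the replicates 1, from the other flowcell, the index was 0.348 for S_221 and 0.351 for S_220. It is called the library labelled S_220 below, and the source of this pattern was not tested.

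**Figure D2:**
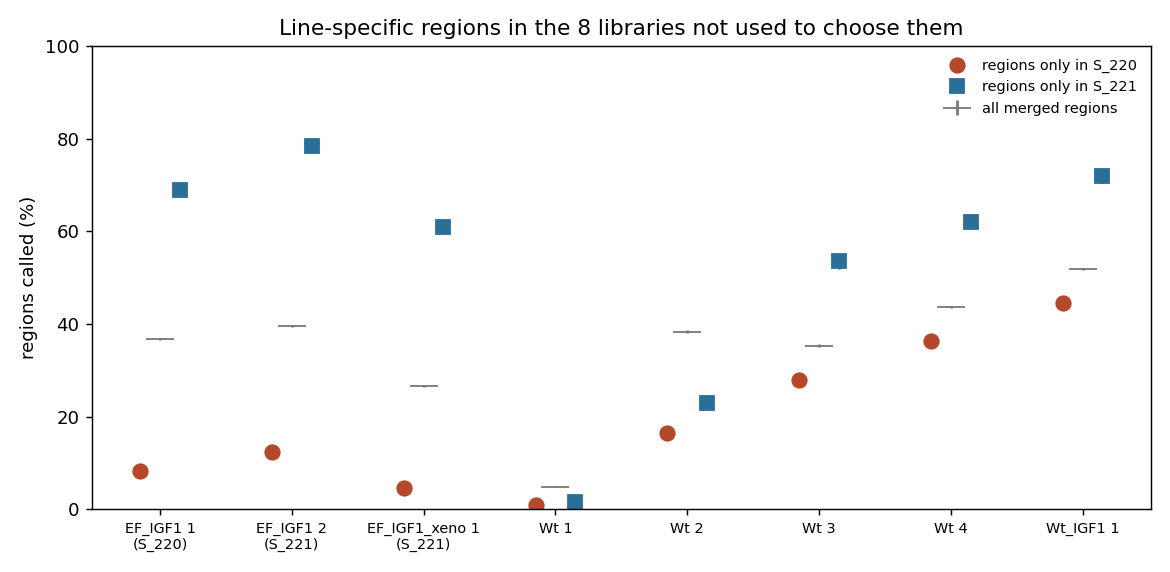
Share of the regions specific to S_220 (red circles) and to S_221 (blue squares) that each of the 8 other libraries called, in percent; grey bars give the share of all merged regions, and the exact 95% intervals are smaller than the symbols. In all 3 EF_IGF1 and EF_IGF1_xeno libraries the S_221 regions lie at 61.0% or more and the S_220 regions at 12.3% or less.

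The Wt cells also called the S_221 regions more often. Wt replicates 3 and 4 called 53.5% and 62.1% of the regions specific to S_221, and 27.9% and 36.4% of those specific to S_220. Wt replicate 2 called 22.9% and 16.6%, and Wt replicate 1, which had 7723 peaks, called 1.62% and 1.04%. The direction was not particular to the specific regions. Of all regions called in both S_221 libraries, Wt replicates 3 and 4 called 83.3% and 89.7%. Of all those called in both S_220 libraries, they called 70.7% and 79.7%. Of the S_220 regions, 4283 (52.0%) were called in none of the 4 Wt libraries, and 3455 (41.9%) in none of the 8 other libraries. Of the S_221 regions, 1061 (26.9%) were called in no Wt library and 196 (4.97%) in none of the 8. Regions private to S_220 were thus a large part of its specific set, and regions private to S_221 a small part. The other 8 libraries are not balanced for this count, since 2 of them are titled S_221 and the only one titled S_220 called 8.39% of the S_220 regions.

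Line-specific regions were mostly distal. A gene start, taken as the RefSeq promoter window from 250 bases before to 50 bases after a start, lay in 297 (3.60%) of the S_220 regions and in 98 (2.48%) of the S_221 regions. Among regions called in all 4 EF libraries the share was 37.0%, and among all 87159 it was 10.8%. More than 100 kb from any protein-coding gene lay 18.9% of the S_220 regions, 9.12% of the S_221 regions, 4.49% of those called in all 4 and 10.7% of all 87159, so the share was above that of all regions in S_220 and not in S_221. The specific regions were also of middling or low rank within their own lists. By −log10 p, their median percentile was 41.8 and 42.9 in the S_220 libraries, and 34.1 and 60.7 in S_221 replicates 1 and 2, against 57.5 to 83.3 for regions called in all 4.

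The clearest single difference lay on chromosome 4 around Cdkn2a and Cdkn2b. Both S_220 libraries were open at both Cdkn2a starts, at the Cdkn2b start and at 4 distal elements beyond it, and no library of S_221, EF_IGF1 or EF_IGF1_xeno was. Of the 4 Wt libraries, 2 were open at the Ink4a start, 4 at the Arf start and 3 at Cdkn2b. The region over the Ink4a start of Cdkn2a (chr4:89281998-89282493) had a −log10 p of 31.3 and 39.4 in the 2 S_220 libraries and of 22.6 and 39.9 in Wt replicates 3 and 4. It was not called in either S_221 library. The region over the Arf start (chr4:89294380-89295669) had 21.0 and 25.1 in S_220 and was called in all 4 Wt libraries, at 10.8, 42.8, 7.43 and 32.1 in replicates 1 to 4. S_221, EF_IGF1 and EF_IGF1_xeno again had no call.

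The Cdkn2b start (chr4:89310425-89311424) had a −log10 p of 30.1 and 37.5 in S_220 and of 43.6, 18.9 and 34.6 in Wt replicates 2, 3 and 4. Wt replicate 1, with its short list, had none there. Between the starts, an element at chr4:89302126-89302557 had 25.9 and 10.3 in S_220. Beyond Cdkn2b, 4 elements at 38.1, 40.5, 61.6 and 70.7 kb from its start were called in both S_220 libraries and in 1 to 3 Wt libraries each. In all, 9 regions assigned to Cdkn2a (3) or Cdkn2b (6) within 100 kb were specific to S_220, and 0 to S_221. With stricter peaks and with summit windows, all 9 were still overlapped by a region specific to S_220, and with equal lists 6 were. Leaving out a library only drops a condition of the rule, so all 9 had to remain and this is no check.

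The stretch without peaks overlapped among the libraries that shared it, with borders that differed. In S_221 replicate 2 and in the EF_IGF1 library titled S_221 it ran from chr4:89287030 to 89393212, which is 106.2 kb with 0 peaks. In the EF_IGF1 library labelled S_220 it ran from 89287030 to 89401751, or 114.7 kb, and in the EF_IGF1_xeno library from 89208170 to 89401751, or 193.6 kb. S_221 replicate 1, with its short list, had none from 89208170 to 89425911, or 217.7 kb. A weak region between the Ink4a and Arf starts (chr4:89286699-89287029) bounds it where called. That region had 7.69 in S_221 replicate 2 and 11.9 and 9.19 in the EF_IGF1 libraries, and no call in any other library. The Ink4a start thus lies outside the stretch in the libraries that called that region. Both flanks were open in S_221: a region inside Mtap, the gene of methylthioadenosine phosphorylase (chr4:89169527-89170290), had 21.4 and 117, and a region 117 kb beyond the Cdkn2b start (chr4:89427476-89428821) had 36.8 and 96.2. In S_220 these flanks had 8.58 and 30.3, and 38.4 and 49.9. Whether the DNA of the stretch is lost in S_221 or closed cannot be told apart from peak lists, which give no reads outside peaks.

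**Figure D3:**
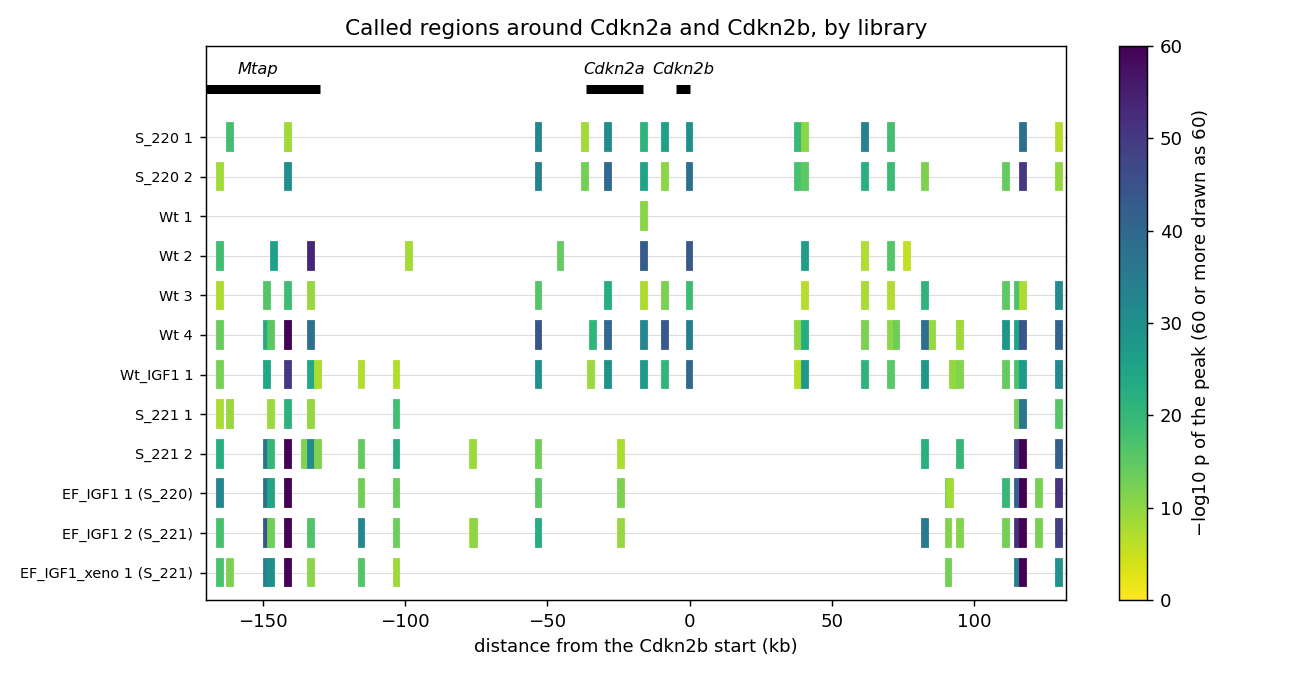
Regions called around Cdkn2a and Cdkn2b in the 12 libraries (rows) against the distance of the region's centre from the Cdkn2b start in kb, drawn 2 kb wide and coloured by the −log10 p of the peak; black bars are genes. The S_220 rows and those of Wt replicates 3 and 4 hold regions at both Cdkn2a starts and at Cdkn2b, and the rows of S_221, EF_IGF1 and EF_IGF1_xeno are empty at all 3 starts and from there to beyond Cdkn2b, apart from 1 region between the Cdkn2a starts, while their flanks are filled.

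Runs of neighbouring regions absent from a line were then counted over all chromosomes. A run is a stretch of merged regions with no call in either library of one line that holds at least 5 regions called in both libraries of the other. S_221 had 142 such runs and S_220 had 5, and with equal lists the counts were 46 and 9. Leaving out S_221 replicate 1, the library with the short list, gave 145 and 293. The number of runs therefore moved with list length. In equal lists the specific regions came near each other (4616 and 4159), while runs absent from S_221 still outnumbered those absent from S_220. Most runs absent from S_221 were not stretches that Wt cells hold open: 586 of their 951 regions (61.6%) were called in no Wt library. Of the 142 runs, 1 had at least 5 of its regions called in 3 or more Wt libraries, and it was the run over Cdkn2a and Cdkn2b, with 5 of 7.

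By number of regions, the longest run absent from S_221 was chr12:26534633-28474672, with 18 regions called in both S_220 libraries over 1940 kb. By span it was a run of 4388 kb with 11 regions on chromosome 6. The chromosome 12 run holds Sox11, a SOXC transcription factor of embryonic mesenchyme and neurons, and Dcdc2c. The Sox11 start (chr12:27342068-27343643) had a −log10 p of 30.4 and 23.1 in S_220 and of 8.54 and 25.9 in Wt replicates 3 and 4. Of all 67 regions in the span of the chromosome 12 run, S_220 called 30 and 32, and Wt replicates 1 to 4 called 0, 0, 18 and 44. The EF_IGF1 library labelled S_220 called 1, that titled S_221 called 2 and the EF_IGF1_xeno library 3. Of the 18 regions called in both S_220 libraries, 8 were called in no Wt library. The next longest were chr2:77392979-77918417 with 14 regions (Cwc22, a splicing factor, and Zfp385b, a zinc finger gene), chr5:125588899-126486733 with 14 (Tmem132b among its genes), and chr10:91297868-92434653 with 13 and no protein-coding gene inside. After these, 6 runs had 11 regions each, of which chr1:14579360-15691149 holds Msc, Trpa1 and Kcnb2. All 14 regions of the Tmem132b run were called in no Wt library.

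Of the runs absent from S_221, chr9:7221267-7554039 held a cluster of matrix metalloproteinase genes, Mmp13, Mmp12, Mmp3, Mmp1a, Mmp1b and Mmp10. Here 7 regions were called in both S_220 libraries, 3 of them at gene starts. A region inside Mmp3, the gene of stromelysin, had a −log10 p of 38.9 and 48.6 in S_220 and no call in the other 10 libraries. The stretch was not private to S_220, however: of its 32 regions S_220 called 9 and 11, Wt replicates 2, 3 and 4 called 12, 5 and 19, and 2 of the 7 regions were called in no Wt library. This run was singled out after its values were seen, because it lies near Yap1.

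The 5 runs absent from S_220 had Wt and IGF1 calls inside them. The longest, chr8:14107761-14599650, lies in Dlgap2, which encodes a postsynaptic scaffold protein, and had 8 regions called in both S_221 libraries. Within it S_221 called 8 and 19 of 35 regions, Wt replicates 3 and 4 called 10 and 20, and the 3 libraries of EF_IGF1 and EF_IGF1_xeno called 5 to 20. Of the others, which had 5 regions each, 3 are described. They held Col6a4, Col6a5 and Col6a6, collagen chains, on chromosome 9 (105696793 to 106058523), part of Zfp827 on chromosome 8 (79041412 to 79097450), and no protein-coding gene on chromosome 17 (45807372 to 45866803). Of the 28 regions in these 5 runs, Wt replicate 4 called 89.3% and the EF_IGF1 library labelled S_220 78.6%.

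Gene starts open in 1 line were a small and mixed group. Among the 297 starts open only in S_220, the strongest by the lower −log10 p of the line's 2 libraries was that of Sgms1, a sphingomyelin synthase, with 44.6 and 43.0. S100a8, which encodes a calcium-binding alarmin, followed with 42.6 and 74.1, and was also called in Wt replicates 2, 3 and 4, at 31.5, 37.9 and 64.8. Gpnmb, a transmembrane glycoprotein of osteoblasts and macrophages, had 41.0 and 45.3 and was called in all 4 Wt libraries. Dnah9, an axonemal dynein, had 33.8 and 37.7 and no call in the other 10 libraries. Mycn, the proto-oncogene of the MYC family, had 15.3 and 17.8 and likewise no call in the other 10.

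Among the 98 starts open only in S_221, most of the strongest were open in Wt and in the EF_IGF1 libraries too. Kmt5a, a histone H4 lysine methyltransferase, led with 30.6 and 82.1, and had 66.3 in the EF_IGF1 library labelled S_220. Nppb, the natriuretic peptide B gene, had 27.3 and 72.6. Aim2, a sensor of cytosolic DNA, had 27.2 and 24.7 and was called in 1 Wt library. Cxcl1, a neutrophil chemokine, had 16.3 and 83.1 in S_221, 47.8 and 69.0 in Wt replicates 3 and 4, and no call in S_220. Ankrd1, a widely used target gene of YAP and TEAD, had 12.8 and 67.9 in S_221, 11.3 and 35.9 in Wt replicates 3 and 4, and 104, 89.6 and 76.9 in EF_IGF1 replicates 1 and 2 and EF_IGF1_xeno. Hoxd9 had 11.5 and 38.3 in S_221 and 19.1 in Wt replicate 4.

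Promoter letters differed little between the groups except for AP-1. TGANTCA stood in 18.1% of the 105 promoters under S_221 regions, in 4.95% of the 323 under S_220 regions and in 6.17% of all 21044. CATTCC stood in 14.3%, 14.9% and 11.6% of them, and GGAAGGAA in 2.86%, 4.33% and 2.83%. A match is a description of the letters and not of a bound site.

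Of the 5 strongest specific regions, 4 lay more than 100 kb from a protein-coding gene in S_220, and all 5 lay within or near one in S_221. A region at chr6:126374951-126375791, 157 kb from the nearest protein-coding gene, Kcna5, had a −log10 p of 83.3 and 76.2 in S_220 and no call elsewhere. The same held for chr13:97791413-97792046, 107 kb from Arhgef28, with 85.0 and 73.8. The other 3 of the top 5 were called in 1 or 2 Wt libraries: chr12:115311877-115312457, chr1:184271162-184271858 and chr6:145723237-145723991. In S_221 the strongest was chr11:6008573-6009259 inside Camk2b, a calcium/calmodulin-dependent kinase, with 51.9 and 72.9, no Wt call, and 85.9, 90.4 and 79.8 in the EF_IGF1 and EF_IGF1_xeno libraries. Regions in Rab31 and Ppp2r5d, near Ptgis (prostacyclin synthase) and near Scaf8 followed, and the last 2 were called in Wt replicates 3 and 4.

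By gene, 3931 of the 16562 genes with an EF region (23.7%) had at least 1 region specific to S_220, and 2648 (16%) at least 1 specific to S_221. The genes with most S_220 regions were long genes, several of them for ion channels: Cacna2d3, a calcium channel subunit, Trpm3, a cation channel, and Prkg1, a cGMP-dependent kinase, had 17 each. Kcnma1, a potassium channel, had 15, Lrmda and Zfp385b 14 each, Dlg2, a scaffold protein, 13, and Sdk1, Zfp536 and Rad51b 12 each. A long gene holds more regions of any kind, and the Cacna2d3 count stood beside 48 regions in any of the 4 libraries. In the EF_IGF1 library labelled S_220, 0 of the 17 Cacna2d3 regions, 1 of the 17 Trpm3 regions and 1 of the 17 Prkg1 regions were called. Sdk1, an adhesion molecule, had none of its 12 regions in any Wt library. The top Cacna2d3 region (chr14:29191207-29191916) had a −log10 p of 39.3 and 50.8.

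Dlgap2 had the most S_221 regions, 12 of 38, and 0 specific to S_220. Zfp827, Chst11 (a chondroitin sulfotransferase), Mtap and Ank3 had 7 each, and Mast4, Glis1, Cpne8, Nfatc1 and Apbb2 had 6 each. All 6 Glis1 regions were called in both EF_IGF1 libraries and in EF_IGF1_xeno. Glis1 encodes a zinc finger transcription factor, and its top region (chr4:107467913-107469018) had 28.7 and 126 in S_221 and 161 in the EF_IGF1 library labelled S_220. The 7 Mtap regions lie on the other side of the Cdkn2a stretch, and the 3 libraries of EF_IGF1 and EF_IGF1_xeno called 5 of them each.

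Gene lists were read against all genes, where 8.58% of regions within 100 kb were specific to S_220 and 4.61% to S_221. Of 23 lists, hedgehog and osteogenic genes had high shares for S_220 among lists with over 100 regions. Of 157 hedgehog regions 23 (14.6%) were specific to S_220 and 8 (5.10%) to S_221, and Gli2 and Gli3, the transcription factors of the pathway, held 10 each of the 23. None of the 10 Gli2 regions was called in the EF_IGF1 or EF_IGF1_xeno libraries, and 7 were called in Wt replicate 4. Osteogenic genes had 22 (15.3%) and 9 (6.25%) of 144, led by Runx2, the master factor of bone formation, with 5 and 3 of its 44 regions, and by Bmp2, a bone-inducing ligand, with 3 and 0 of 6. Limb position genes had 19 (12.8%) and 8 (5.41%) of 148, with 3 S_220 regions each at Lmx1b, Hand2 and Emx2. Within 20 kb of a gene the share of this list was 7.14%, below the 7.92% of all genes at that distance. These are counts of regions that share genes, and no test of a list was made.

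Genes of the IGF pathway had 23 (11.5%) and 5 (2.50%) of 200 regions within 100 kb, and 10 (7.35%) and 2 (1.47%) of 136 within 20 kb, where the S_220 share lay below that of all genes. Foxo1, a transcription factor held out of the nucleus by insulin and IGF signalling, had 5 of its 14 regions only in S_220. Igf1, the ligand, had 3 only in S_220 and 2 only in S_221 of 17, and Igf1r, its receptor, had 2 and 0 of 23. The strongest Igf1 region of S_221 (chr10:88008618-88009190, 71.6 kb from the gene) had 15.9 and 79.6 there and 80.9 in Wt replicate 4.

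YAP and TEAD targets lay below the share of all genes in both directions, with 21 (5.95%) and 12 (3.40%) of 353 regions. Of the 25 targets 10 had an S_220 region and 9 an S_221 region, and Rbms3 alone held 7 of the 21. The Hippo core had 7 (5.83%) and 4 (3.33%) of 120. Yap1 itself, the coactivator at the end of the pathway, had 2 regions only in S_220 and 1 only in S_221 of 8. Its start was called in all 4 libraries, at 11.4 and 35.9 in S_220 and at 13.3 and 52.3 in S_221. A Yap1 intron region at chr9:7952945-7953411 had 24.8 and 48.9 in S_220 and was called in none of the EF_IGF1 and EF_IGF1_xeno libraries, and one at chr9:7965462-7966205 was called in both S_221 libraries, at 7.46 in replicate 1, and in all 3 of them. Known EWS::FLI1 targets of human Ewing sarcoma had 16 (9.04%) and 6 (3.39%) of 177 regions, and 11 (9.65%) and 2 (1.75%) of 114 within 20 kb.

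Fat and matrix lists lay near the shares of all genes, with 11 (8.21%) and 7 (5.22%) of 134 regions for adipogenic genes and 18 (7.26%) and 15 (6.05%) of 248 for the extracellular matrix. Chondrogenic genes had 12 (10.7%) and 8 (7.14%) of 112. Among single genes, Sox9, which starts cartilage formation, had 4 of its 5 regions only in S_221, of which the strongest (chr11:112849960-112851182) had 26.3 and 65.2 there and 73.1, 103 and 79.1 in the EF_IGF1 and EF_IGF1_xeno libraries. Sox5, its partner, had 7 of 37 only in S_220 and 3 only in S_221. Cebpa, a late factor of fat cell formation, had 3 of 6 only in S_220, and Cebpb, an early one, had 3 of 17 only in S_221 and 1 only in S_220. Cxcl12, a niche chemokine, had 4 regions only in S_220 and 0 only in S_221. Prrx1, a mesenchymal transcription factor, had 4 and 0 of its 21 regions. Over all genes the shares were 8.58% and 4.61%. The posterior HOX list had 6 (13.0%) and 1 (2.17%) of 46 regions, with Hoxc11, Hoxc12, Hoxa13 and Hoxd11 among those on the S_220 side and Hoxd9 on the S_221 side. Among tumour suppressors and cell cycle genes, 9 of the 17 S_220 regions were those of Cdkn2a and Cdkn2b, while Cdkn1a, another kinase inhibitor, had 2 regions only in S_221, and Trp53, the gene of p53, had none in either direction. WNT genes had 28 (10.9%) and 12 (4.67%) of 257, BMP and TGF-beta genes 23 (10.6%) and 15 (6.94%) of 216, inflammatory and AP-1 genes 9 (6.34%) and 6 (4.23%) of 142, and anterior HOX genes 5 (11.1%) and 4 (8.89%) of 45. The mesenchymal stem and niche list had 18 (9.52%) and 7 (3.70%) of 189. Within 20 kb the S_220 share of that list was 5.79%, below all genes, and that of the inflammatory and AP-1 list 9.30%, above all genes.

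**Figure D4:**
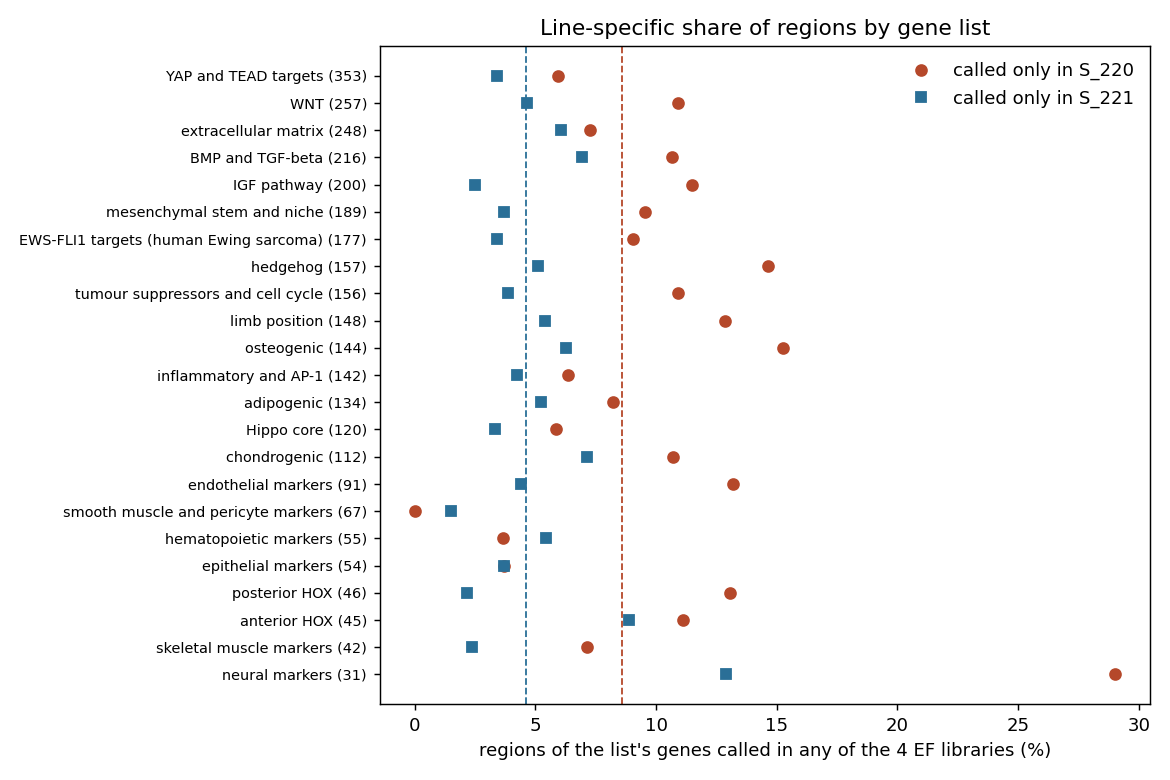
Share of each list's regions called only in S_220 (red circles) or only in S_221 (blue squares), in percent of its regions called in any of the 4 EF libraries, whose number stands in brackets; dashed lines give the shares over all genes, 8.58% and 4.61%. Lists are ordered by number of regions, and the neural list with 31 regions stands at 29.0% and 12.9%.

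Marker lists checked the labelled cell type. Of 14 mesenchymal stem and niche genes with a region at their start in any library, the S_220 libraries called 8 and 10 and the S_221 libraries 6 and 12. Cd44, Foxc1, Itgav, Kitl, Twist1 and Twist2 were called in all 4, and Prrx1 in 3 of 4, at 13.3 and 16.1 in S_220 and 8.74 in S_221 replicate 2. Of 7 hematopoietic starts the 4 libraries called 2 or 3, always including Cd68 and Runx1 and never Ptprc, the pan-leukocyte gene. The other start called was that of Lyz2, in S_220 replicate 1 and S_221 replicate 2. No skeletal muscle or epithelial marker start was called in any library. Endothelial starts numbered 2 and 3 in S_220 and 0 and 4 in S_221, of Egfl7, Flt1, Kdr and Tek. Neural starts, Map2 and Tubb3, were called in both S_220 libraries and in S_221 replicate 2, and none in S_221 replicate 1. Smooth muscle and pericyte starts numbered 2 and 2, and 1 and 4. Distal regions of markers differed between lines too: Emcn, an endothelial sialomucin, had 5 of 12 regions only in S_220 with no Wt call, and Map2, of neurons, 5 of 12. In total the neural list had 9 and 4 of 31 regions specific to S_220 and S_221, the endothelial list 12 and 4 of 91 (13.2% in S_220, and 7.27% within 20 kb), the skeletal muscle list 3 and 1 of 42, the epithelial list 2 and 2 of 54, the hematopoietic list 2 and 3 of 55, and the smooth muscle and pericyte list 0 and 1 of 67. Their part in the other counts was not tested.

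The 2 lines also differed by chromosome. On chromosome 12, 13.5% of EF regions were specific to S_220 and on chromosome 6 12.9%, against 7.25% on chromosome 16, the lowest. On chromosome X 1.46% were specific to S_221, the lowest, and on chromosome 17 6.23%, the highest. The local background around peaks, solved from the fold and p-value of each peak, was then compared by chromosome as log2 over the library's median. It reflects both the number of copies of the DNA and how open the neighbourhood is, and these cannot be told apart here.

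On chromosome 6 the background stood at 0.18 and 0.19 in the 2 S_220 libraries and at 0.02 and −0.08 in the 2 S_221 libraries, over all peaks. Over the 1050 regions there called in all 4 libraries, it stood at 0.23 and 0.24 in S_220 and at −0.01 and −0.16 in S_221. The difference between the lines was 0.24 on BSF_0654 and 0.40 on BSF_1013. The EF_IGF1 libraries labelled S_220 and S_221 stood at −0.03 and −0.13, and Wt replicates 3 and 4 at −0.09 and −0.07. Only S_220 was high, and both its libraries were.

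In windows of 10 Mb, all 10 chromosome 6 windows from 40 Mb onward with at least 20 regions were higher in S_220 on both flowcells, for example by 0.44 and 0.62 at 50 to 60 Mb and by 0.34 and 0.43 at 140 to 150 Mb. The window at 10 to 20 Mb differed by −0.04 and −0.03. Over all 245 such windows, the 2 flowcells gave differences that lay a median of 0.10 apart. In 9 windows S_220 was higher by more than 0.3 on both flowcells. Of these 5 were on chromosome 6, 3 were the first 30 Mb of chromosome 7 (0.45 and 0.51, 0.43 and 0.59, and 0.39 and 0.51) and 1 was on chromosome 14. On chromosome 7 the Wt libraries were high as well: in the first 10 Mb Wt replicates 3 and 4 stood at 0.54 and 0.53, S_220 at 0.31 and 0.52, and S_221 at −0.07 and −0.09. In 4 windows S_220 was lower by more than 0.3 on both flowcells, and all were on chromosome 4. They were 50 to 60 Mb, 80 to 90 Mb, 110 to 120 Mb and 120 to 130 Mb, and the window at 80 to 90 Mb, which holds Cdkn2a, had the greatest difference, −0.73 and −0.59. There S_220 stood at −0.51 and −0.45, near Wt replicates 3 and 4 at −0.53 and −0.41, while S_221 stood at 0.29 and 0.25.

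Over whole chromosomes, at regions called in all 4 libraries, S_220 was also higher on chromosomes 7 (by 0.21 and 0.24), 12 (0.10 and 0.26), 14 (0.25 and 0.14) and X (0.18 and 0.13). It was lower on chromosomes 4 (−0.16 and −0.13), 8 (−0.16 and −0.39), 16 (−0.13 and −0.19) and 17 (−0.11 and −0.10). With reads at the summit in place of the background, the difference on BSF_0654 turned to 0.04 on chromosome 8. That on BSF_1013 turned to −0.01 on chromosome X. Chromosome 19 differed by 0.39 on BSF_0654 and by −0.09 on BSF_1013. Chromosome 15 stood at 0.27 and 0.27 in S_220 and at 0.37 and 0.33 in S_221, above Wt replicates 3 and 4 at 0.10 and 0.03, so both lines were high there. At 0.69 and 0.58 the EF_IGF1 libraries were higher still.

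**Figure D5:**
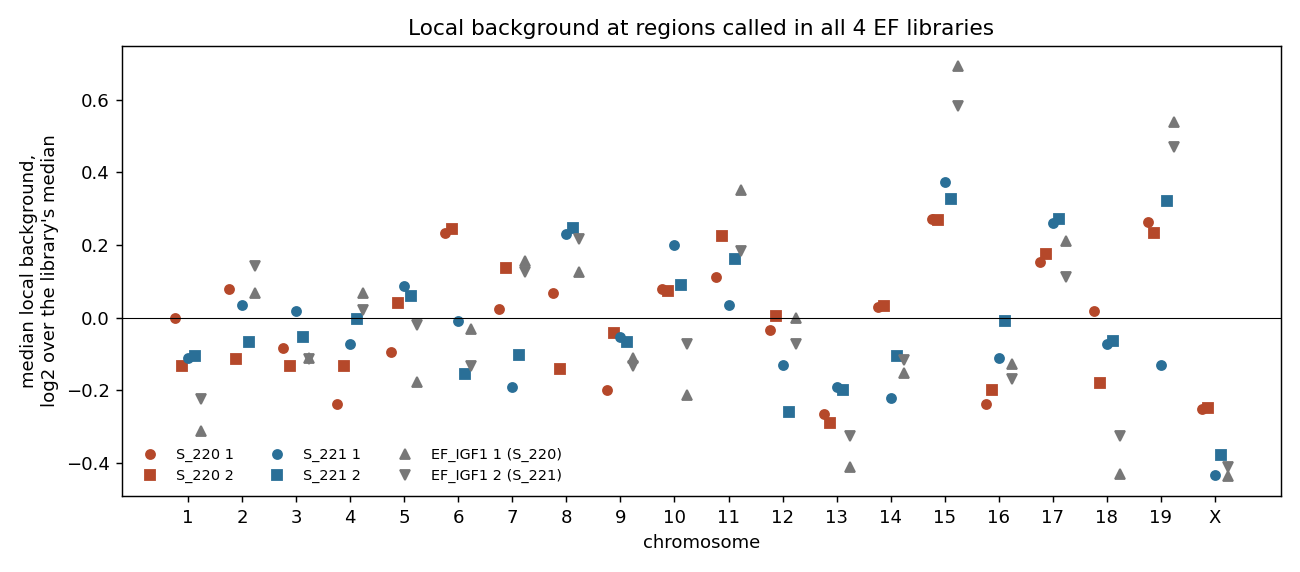
Median local background of peaks by chromosome, as log2 over the library's median, at regions called in all 4 EF libraries; red is S_220, blue S_221 (circles replicate 1, squares replicate 2) and grey triangles the 2 EF_IGF1 libraries. On chromosome 6 both S_220 libraries lie at 0.23 and 0.24 while the other 4 lie at or below −0.01.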

How the data were processed

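Peak lists of 12 ATAC-seq libraries, 1 per library, were used as deposited. The submitters' processing notes name MACS2, without a version, and the build GRCm38.p3. Nothing on the aligner, filters, transposase shift or read totals was found; these are not given in sources used here. Depth is therefore unknown beyond the number of peaks. For every peak the authors deposited its summit, a fold enrichment at the summit, a score, and p-value and q-value as −log10. These are the authors' values and only describe, rank or filter peaks. Peaks off chromosomes 1 to 19 and X, 23 to 43 in each library, were not used. Members and gene lists were chosen with earlier results of these data known.

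From fold and p-value, whole reads at each summit and the local background were solved, as (reads + 1)/(background + 1) and the upper Poisson tail, which solved 100% of peaks within 0.001 of the deposited −log10 p. The solver and the run finder were tested on simulated data. Regions were assigned to the nearest protein-coding gene within 100 kb (RefSeq, GRCm38.p6, credited for names, positions and promoter sequences), since p3 and p6 share chromosome coordinates. The text names, in each direction, the 10 genes with most specific regions, the 5 strongest regions, the leading members of each list, genes in the 5 longest runs (1 run is not reported here), and a set named whatever their values (such as Yap1, Igf1 and Cdkn2a); of that set Tbx5, Tbx4, Pitx1 and Xist had no line-specific region. Gene starts, other list members and windows were chosen after their values were seen. Regions were not tested one by one: the lists hold calls and no reads outside peaks, and the exact permutation test of 2 against 2 libraries gives no p below 0.333. Alternatives were stricter peaks (−log10 q at least 5), summits widened by 250 bp to each side, equal lists, each flowcell alone, each library left out, a minimum run of 10 and a gene distance of 20 kb. Python 3.11 with pandas, numpy and scipy was used.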

Additional observations from a re-analysis of the deposited data

Results flagged for a closer look

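The regions specific to S_220 were called less often in the EF_IGF1 library labelled S_220 than in that titled S_221, by −3.95 percentage points, although the EF libraries of S_220 defined these regions. The direction is opposite to that between the EF libraries of the lines, and the difference was not tested, since each EF_IGF1 title has 1 library. With equal lists the shares were 9.84% and 10.5%, so the gap was smaller, and the library labelled S_220 also called fewer of the S_221 regions, 68.9% against 78.4%.

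On chromosome 9 from 8 to 10 Mb, a window that holds part of Yap1, 7 regions were called in all 4 EF libraries. Their local background stood above that of every Wt library in the EF_IGF1 and EF_IGF1_xeno libraries, which the comparison of the lines does not use. It was 1.92 (log2 over the library's median) in the EF_IGF1 library labelled S_220, 2.24 in that titled S_221 and 2.79 in EF_IGF1_xeno. The Wt libraries with a value ran up to 0.39. In the EF libraries it was 0.12 and −0.38 in S_220 and −0.61 and 0.09 in S_221, so the lines overlapped.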

How the results depend on the processing

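Peaks are all that these lists hold, so an absent call limits every count. With equal lists, 4616 regions were specific to S_220 and 4159 to S_221, the runs absent from S_221 and from S_220 numbered 46 and 9, and the S_221 pair had a Jaccard index of 0.402. The flowcells alone gave 29578 and 15194 regions only in S_220, and 29746 only in S_221 on BSF_1013. Leaving out a library drops a condition of the rule, so the counts of specific regions could not fall. Doing so for each library gave 8368 to 19781 regions only in S_220 and 4505 to 24644 only in S_221. Runs absent from S_221 then numbered 145 to 755, and those absent from S_220 10 to 293. The highest of these came without S_221 replicate 2 for the S_220 side and without S_221 replicate 1 for the S_221 side. A minimum of 10 regions left 17 and 0 runs. In the equal lists the S_220 regions were called in 9.84%, 10.5% and 9.66% by EF_IGF1 replicates 1 and 2 and EF_IGF1_xeno, and the S_221 regions in 62.2%, 66.9% and 64.7%. Summit windows gave 9.14% for EF_IGF1 replicate 1 and 5.49% for EF_IGF1_xeno, and stricter peaks 13.2% for EF_IGF1 replicate 2. Within 20 kb, the lists held 195 regions only in S_220 in place of 306. On chromosome 6 the background of S_220 minus S_221, 0.22 over all peaks, was 0.32 at regions called in all 4 EF libraries and 0.31 at those called in all 12, both chosen after the data were seen. With a replicate block that pairs the libraries by flowcell, added after the data were seen, peaks per library again differed by a mean of 5294.5, with an exact two-sided sign-flip permutation p = 1, where 2 pairs give no less than 0.5. The other results are counts with no test to block. Leaving out S_221 replicate 1 also gave 1 region around Cdkn2a and Cdkn2b only in S_221, where no other setting did.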
